A study of Mus musculus with 6 samples.

Results

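The IFIT and IFITM genes are the antiviral families described here, in hematopoietic stem cells (HSCs) with and without *Irf1*. The members are 4 IFIT genes (*Ifit1*, *Ifit2*, *Ifit3*, and *Ifit3b*) and 4 IFITM genes (*Ifitm1*, *Ifitm2*, *Ifitm3*, and *Ifitm10*). They were found by symbol in a table of 26264 genes, which held all 8. Bulk RNA-seq was done on HSCs sorted from bone marrow as Lin-Sca-1+Kit+CD150+CD48- cells. The WT group was 3 untreated C57Bl/6 mice and the *Irf1-/-* group was 3 untreated mice with the whole-body knockout B6.129S2-Irf1 tm1Mak/J, all of them 8-week-old females with 1 library each. Because the knockout was whole-body, effects of other *Irf1*-deficient cells on HSCs cannot be told apart from effects within HSCs. Libraries carry the replicate numbers 2, 3, and 4 in both genotypes. Reads on genes were 59658080 (replicate 2), 45332573 (replicate 3), and 43267486 (replicate 4) in WT HSCs, and 43138521, 57281017, and 45129929 in the *Irf1-/-* libraries of the same numbers.

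Interferons act through receptor-bound kinases and STAT and IRF transcription factors to raise many antiviral transcripts, among them both of these families. IFIT proteins are cytoplasmic, built of tetratricopeptide repeats, and bind viral RNA that lacks the marks of host mRNA or block its translation. IFITM proteins are small membrane proteins that hinder the fusion of enveloped viruses with cell membranes, and stem cells are known to hold high levels of them without infection.

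*Irf1* itself had normalized counts of 10122, 11120, and 12057 in WT HSCs (replicates 2, 3, and 4) and of 9267, 9524, and 9287 in *Irf1-/-* HSCs. The *Irf1-/-* libraries were below the WT libraries, but the difference was not called (log2 fold change −0.24, SE 0.088, adjusted *P* = 0.170, limma). A count over the whole gene does not show whether the targeted part was read, so it does not check the genotype labels.

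Normalized counts are the reads of a gene divided by a size factor of its library. Calls were made with limma over the 17404 genes whose mean was 10 or more, at an adjusted *P* below 0.05 and a log2 change of more than 0.58 in either direction. All 8 members passed that filter. Fold changes are *Irf1-/-* over WT of log2(normalized count + 1), a scale that understates changes of low genes. Of the 4 IFIT genes, 3 were called lower in *Irf1-/-* HSCs, where 0.954% of all tested genes were called lower. Of the 4 IFITM genes, 1 was called higher, where 0.96% of all tested genes were called higher. The median log2 fold change was −1.29 over the IFIT genes and 0.37 over the IFITM genes, beside −0.0028 over all tested genes. Both medians rest on few values. With *Ifit3* and *Ifit3b* summed, an alternative chosen after the data were seen, the IFIT median was −0.69, and with only genes of a mean of at least 50, which leaves out *Ifitm10*, the IFITM median was 0.023. In bulk RNA, fewer cells with a transcript and less of it per cell cannot be told apart.

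*Ifit1* encodes the family member that recognizes RNA caps without ribose methylation. Its normalized counts were 2621, 2116, and 2313 in WT HSCs (replicates 2, 3, and 4) and 1982, 2452, and 1705 in *Irf1-/-* HSCs. The groups overlapped, since *Irf1-/-* replicate 3 was above WT replicates 3 and 4. The log2 fold change was −0.21 (SE 0.13, 95% interval −0.50 to 0.075, adjusted *P* = 0.497, limma), and *Ifit1* was not called. It was −0.35 without *Irf1-/-* replicate 3, −0.087 without *Irf1-/-* replicate 4, and −0.13 without WT replicate 2.

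*Ifit2*, whose product binds RNA and forms complexes with other IFIT proteins, had 3621, 3779, and 3742 normalized counts in WT HSCs and 2496, 2151, and 2279 in *Irf1-/-* HSCs. Every *Irf1-/-* library lay below every WT library, as was so by any margin for 9.27% of all tested genes. The WT libraries were close together (3714 ± 82.5, SD, *n* = 3), and the *Irf1-/-* mean was 62.2% of theirs. *Ifit2* fell by 0.69 on the log2 scale (SE 0.094, 95% interval −0.89 to −0.49, adjusted *P* = 0.00111, limma).

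*Ifit3*, an adaptor-like member of IFIT complexes, had 490.5, 475.6, and 575.5 normalized counts in WT HSCs and 152.4, 186.7, and 91.4 in *Irf1-/-* HSCs. The groups did not overlap, and *Irf1-/-* replicate 4 was the lowest library. The mean in *Irf1-/-* HSCs was 27.9% of that in WT HSCs, a log2 fold change of −1.89 (SE 0.26, 95% interval −2.44 to −1.34, adjusted *P* = 0.00103, limma). *Ifit3b*, a close copy of *Ifit3* in the same cluster, had 181.9, 171.3, and 188.3 normalized counts in WT HSCs and 29.9, 53.6, and 33.2 in *Irf1-/-* HSCs. Again the genotypes did not overlap, here with *Irf1-/-* replicate 3 the highest of the *Irf1-/-* libraries. The mean in *Irf1-/-* HSCs was 21.5% of that in WT HSCs, and the log2 fold change was −2.23 (SE 0.34, 95% interval −2.97 to −1.50, adjusted *P* = 0.00255, limma). No IFIT call was lost when any 1 library was left out. All 3 were lost when limma was fitted without the trend of variance with level, with an adjusted *P* (limma) of 0.0892 for *Ifit2*, 0.105 for *Ifit3*, and 0.0511 for *Ifit3b*. Over the alternatives the adjusted *P* (limma, edgeR, or DESeq2) ranged from 2.47e-09 to 0.0892, from 8.46e-12 to 0.105, and from 7.34e-09 to 0.0511, respectively. For *Ifit3* and *Ifit3b*, edgeR gave −1.84 and −2.21 and DESeq2 without a prior −1.84 and −2.20. Only DESeq2 with a prior, which draws uncertain fold changes toward 0, gave smaller values in the other order (−1.28 and −1.20).

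Counts of *Ifit3* and *Ifit3b* are uncertain as separate values. Of the 100-base stretches of the *Ifit3* transcript, 31.7% (521 of 1646) occur unchanged in the *Ifit3b* transcript, and 27.4% (521 of 1901) of those of *Ifit3b* occur in *Ifit3*. Their coding sequences are 99.1% identical. Reads were 100 bases from each end of a fragment, so how some were assigned depends on the counting. With both genes summed, the normalized counts were 672.3, 646.9, and 763.8 in WT HSCs and 182.3, 240.2, and 124.6 in *Irf1-/-* HSCs. The groups of the sum did not overlap either, and it fell by 1.97 on the log2 scale (SE 0.23, adjusted *P* = 0.000258, limma). No other pair of members shared a 100-base stretch, although 84 stretches of *Ifit1* (3.29%) occur in the related gene *Ifit1bl2*.

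**Figure D1:**
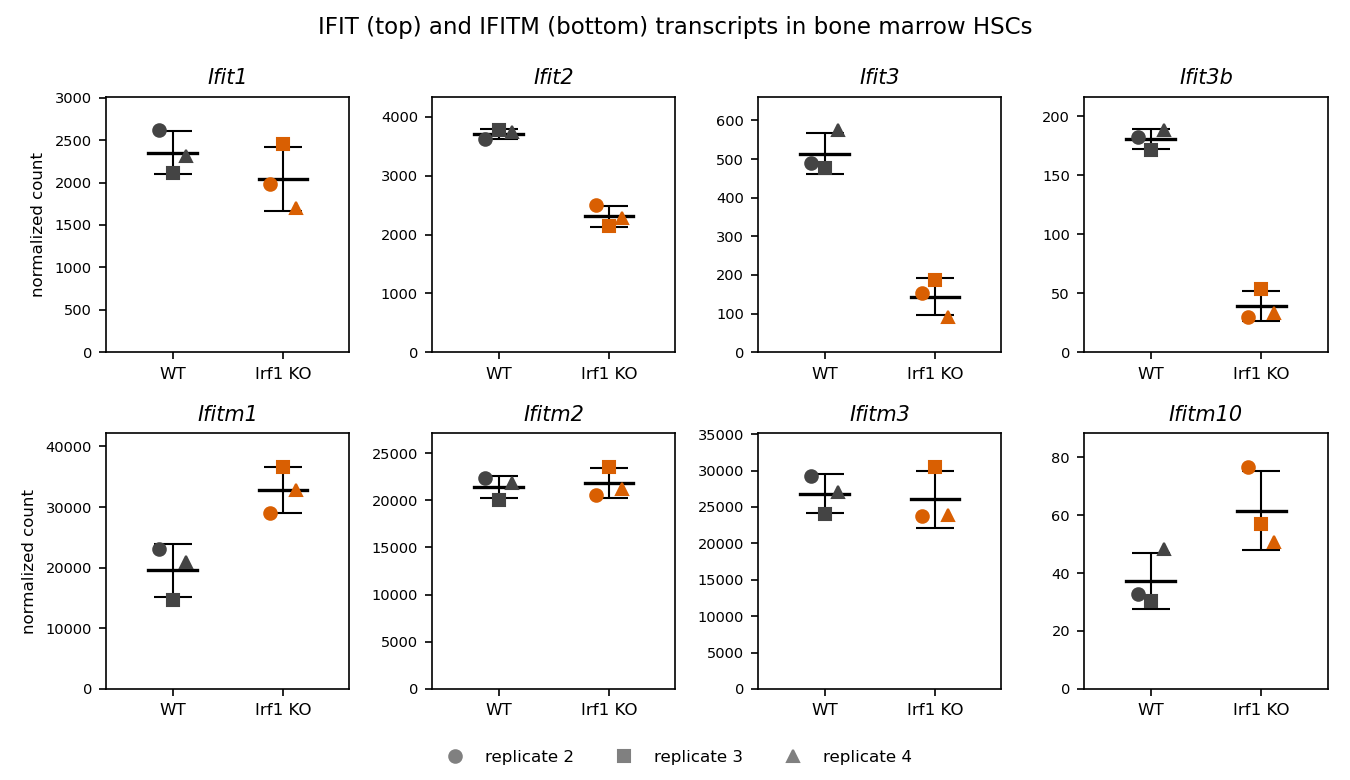
Normalized counts of the 4 IFIT genes (top) and 4 IFITM genes (bottom) in each library, with linear axes from 0. Points are libraries, with the marker shape giving the replicate number, and lines and bars are the mean and SD of 3 libraries. *Ifit2*, *Ifit3*, and *Ifit3b* are below WT in every *Irf1-/-* library, and *Ifitm1* and *Ifitm10* above it.

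*Ifitm1* encodes the family member found mostly at the plasma membrane. Its normalized counts were 23157, 14626, and 20879 in WT HSCs (replicates 2, 3, and 4) and 28994, 36671, and 32849 in *Irf1-/-* HSCs. All *Irf1-/-* libraries were above all WT libraries, and WT replicate 3 was well below the other WT libraries. The mean in *Irf1-/-* HSCs was 168% of that in WT HSCs, and *Ifitm1* rose by 0.77 on the log2 scale (SE 0.14, 95% interval 0.46 to 1.08, adjusted *P* = 0.0103, limma). Without WT replicate 3 the log2 fold change was 0.57, just under the fold threshold, so the call was lost although the adjusted *P* (limma) was 0.0171. It was also lost without limma's variance trend (adjusted *P* = 0.278), the highest value over the alternatives, which began at 8.85e-06 (limma, edgeR, or DESeq2).

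*Ifitm2* and *Ifitm3* encode members found mostly in endosomes, and *Ifitm3* is best known for restricting influenza virus. *Ifitm2* had 22332, 20053, and 21867 normalized counts in WT HSCs and 20538, 23567, and 21243 in *Irf1-/-* HSCs. *Ifitm3* had 29290, 23976, and 27124 in WT HSCs and 23729, 30548, and 23874 in *Irf1-/-* HSCs. For both genes the groups overlapped, and *Irf1-/-* replicate 3 was the highest of all 6 libraries. The log2 fold change was 0.023 for *Ifitm2* (SE 0.089, 95% interval −0.17 to 0.22, adjusted *P* = 0.944, limma). For *Ifitm3* it was −0.046 (SE 0.11, 95% interval −0.29 to 0.20, adjusted *P* = 0.906, limma). Neither sign was steady. That of *Ifitm2* turned after median centring (−0.0076) and in 2 other alternatives, and that of *Ifitm3* after quantile normalization (0.043) and in 3 others.

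*Ifitm10* is a family member without an established antiviral role. It was low, with 32.9, 30.4, and 48.4 normalized counts in WT HSCs and 76.8, 57.0, and 50.9 in *Irf1-/-* HSCs, from 27 to 72 reads per library. All *Irf1-/-* libraries were above all WT libraries, a pattern that 10.6% of all tested genes showed, and the gap between *Irf1-/-* replicate 4 and WT replicate 4 was small. The log2 fold change of 0.72 was not called (SE 0.42, 95% interval −0.18 to 1.62, adjusted *P* = 0.448, limma), and with DESeq2 and a prior it was 0.29.

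The members of each family were also summed per library. The summed normalized count of the 4 IFIT genes was 6914, 6542, and 6818 in WT HSCs and 4660, 4843, and 4108 in *Irf1-/-* HSCs, a *Irf1-/-* mean of 67.1% of the WT mean. The sum of the 4 IFITM genes was 74812, 58685, and 69918 in WT HSCs and 73338, 90843, and 78016 in *Irf1-/-* HSCs. The IFIT sums did not overlap between genotypes and the IFITM sums did. As a share of all recovered reads, the IFITM sum was between 0.115% and 0.152% in WT HSCs and between 0.159% and 0.184% in *Irf1-/-* HSCs, so on that scale the groups did not overlap.

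Within each family the makeup differed between genotypes. *Ifitm1* made up 31.0%, 24.9%, and 29.9% of the IFITM sum in WT HSCs (replicates 2, 3, and 4) and 39.5%, 40.4%, and 42.1% in *Irf1-/-* HSCs. The ratio of *Ifitm1* to *Ifitm3* counts was between 0.61 and 0.791 in WT HSCs and between 1.20 and 1.38 in *Irf1-/-* HSCs. *Ifit1* held between 32.4% and 37.9% of the IFIT sum in WT HSCs and between 41.5% and 50.6% in *Irf1-/-* HSCs. Thus *Ifitm1* took a larger share of its family in every *Irf1-/-* library, and so did the uncalled *Ifit1*. *Ifit3* held 7.60 ± 0.733% (SD, *n* = 3) of the IFIT sum in WT HSCs and 3.12 ± 0.826% in *Irf1-/-* HSCs. These shares rest on the same counts as the fold changes, and the differences between members were not tested.

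Levels were compared between genes as normalized count per kilobase of the longest annotated transcript. In WT HSCs, *Ifitm3* had the highest level (39523 ± 3941 per kilobase, SD, *n* = 3), followed by *Ifitm2* (32899 ± 1850) and *Ifitm1* (22170 ± 5008). These 3 genes were above 99.9%, 99.8%, and 99.6% of the 16402 tested genes with a length, respectively. Far below them came *Ifit2* (973 ± 21.6 per kilobase), *Ifit1* (885 ± 95.8), *Ifit3* (294.5 ± 30.9), *Ifit3b* (90.2 ± 4.28), and *Ifitm10* (10.9 ± 2.86). Of neighbours in this WT order, only *Ifit2* and *Ifit1* had overlapping libraries, so these 2 did not differ beyond their spread. With the median transcript length instead of the longest, *Ifit2* was at 1644 per kilobase and above *Ifit1* by more than the spread, and *Ifitm10* was at 19.0.

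In *Irf1-/-* HSCs the order per kilobase was *Ifitm3* (38422 ± 5746, SD, *n* = 3), *Ifitm1* (37231 ± 4352), *Ifitm2* (33460 ± 2434), *Ifit1* (770 ± 142), *Ifit2* (605 ± 45.7), *Ifit3* (82.2 ± 27.7), *Ifit3b* (19.4 ± 6.42), and *Ifitm10* (18.0 ± 3.96). On this scale *Ifitm1* ranked next to *Ifitm3*, where in WT HSCs it ranked below *Ifitm2*. Libraries overlapped between *Ifitm3* and *Ifitm1*, between *Ifitm1* and *Ifitm2*, between *Ifit1* and *Ifit2*, and between *Ifit3b* and *Ifitm10*. With the median transcript length, 3 neighbouring ranks turned in *Irf1-/-* HSCs. *Ifitm1* (44617 per kilobase) was then above *Ifitm3* (38422), *Ifit2* (1022) above *Ifit1* (770), and *Ifitm10* (31.4) above *Ifit3b* (19.7).

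Within a genotype, some members varied together from library to library and others did not. After the genotype mean was taken from log2 values, *Ifitm2* and *Ifitm3* had a Pearson *r* of 0.976 over 6 libraries, *Ifitm1* and *Ifitm2* 0.885, and *Ifit1* and *Ifitm3* 0.920. *Ifit2* went the other way, with −0.856 against *Ifit3b* and −0.829 against *Ifitm2*, and a negative *r* against every member except *Ifitm10* (0.523). *Ifitm10* followed neither *Ifit1* (0.120) nor *Ifitm1* (0.098), *Ifitm2* (−0.016), or *Ifitm3* (−0.019), and *Ifit3* with *Ifitm1* gave 0.209. *Ifit1*, *Ifitm1*, *Ifitm2*, and *Ifitm3* were highest in the library with the most reads of each genotype (WT replicate 2 and *Irf1-/-* replicate 3), where *Ifit2* was lowest. The values of a library share its depth and size factor, and their part in these correlations was not tested.

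The 3 tested genes whose log2 values were most like those of *Ifit2* over the 6 libraries were *Asap2* (*r* = 0.998), *Apol7e* (0.996), and *Trafd1* (0.996). Here the genotype mean was not taken from the values, so *r* includes the difference between genotypes. *Asap2* was not called (log2 fold change −0.30, adjusted *P* = 0.336, limma). *Trafd1*, which encodes an inhibitor of innate immune signaling, had 5216, 5252, and 5418 normalized counts in WT HSCs and 3374, 3081, and 3200 in *Irf1-/-* HSCs, a fall called at −0.72 (adjusted *P* = 0.000324, limma) but not without limma's variance trend (0.0608). *Apol7e* had 674, 886, and 944.5 normalized counts in WT HSCs and 2.13, 0, and 0 in *Irf1-/-* HSCs. Those most like *Ifitm3* were *Sugp1* (*r* = 0.987), *Cd320* (0.986), and *Gbe1* (0.985), none of them called.

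The table holds 5 further genes of the families. *Ifit1bl1*, an *Ifit1*-like gene, had 339.9, 243.4, and 631.5 normalized counts in WT HSCs and 70.4, 57.0, and 76.8 in *Irf1-/-* HSCs. Its groups did not overlap, and WT replicate 4 was far above the other libraries. The log2 fold change was −2.45 (SE 0.33, adjusted *P* = 9.36e-04, limma), and −2.07 without WT replicate 4 (adjusted *P* = 0.00379, with 6.13e-04 to 0.00636 over the fits without 1 library, limma). DESeq2 with a prior gave −1.46. Without limma's variance trend the call was lost (adjusted *P* = 0.109). The annotated span of *Ifit1bl1* overlaps those of *Ifit3b*, *Ifit1bl2*, and *Ifit1*, and no source used here gives the strand setting of the counting. Its reads and theirs may therefore be mixed. *Ifit1bl2* (log2 fold change −0.041), *Ifitm5*, a bone-associated gene (0.60), *Ifitm6* (−0.85), and *Ifitm7* (0.19) were not called, and their groups overlapped. The values of these 4 were unsteady. *Ifit1bl2* was −0.52 with WT replicate 2 left out and 0.34 when this was WT replicate 4, *Ifitm7* was 0.073 after quantile normalization, *Ifitm6* turned to 0.37 without *Irf1-/-* replicate 4, and DESeq2 with a prior gave 0.24 for *Ifitm5* and −0.082 for *Ifitm6*.

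**Figure D2:**
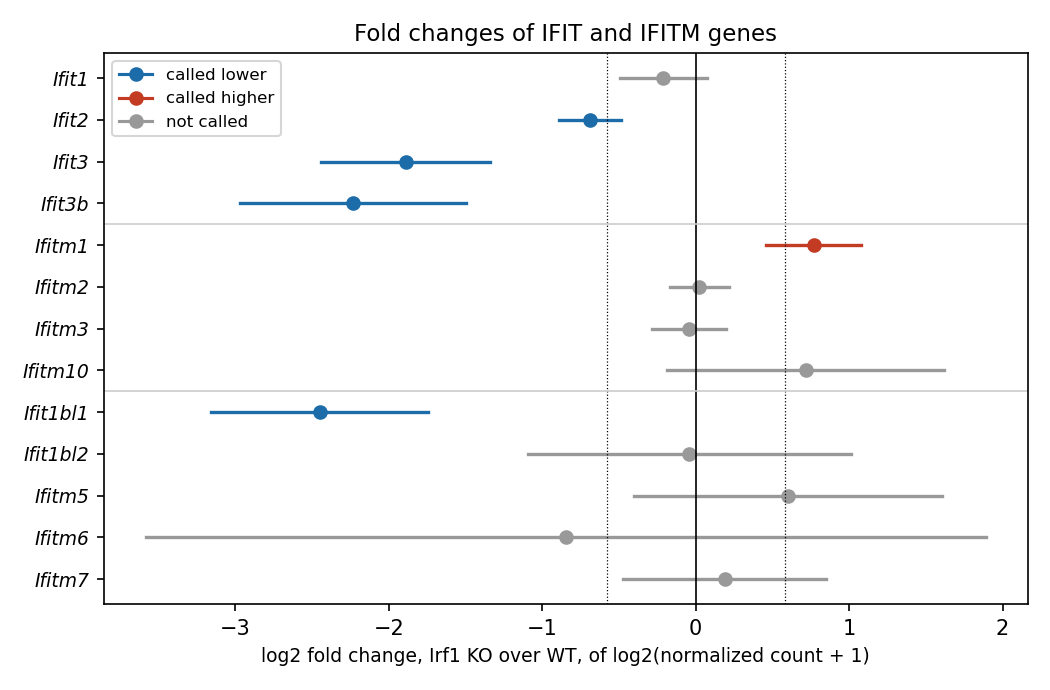
Log2 fold change of the 8 members and the 5 further genes of the families, *Irf1-/-* over WT on log2(normalized count + 1), with 95% intervals from limma. The dotted lines mark 0.58 and −0.58, the solid line 0, and color the call. Intervals of *Ifit2*, *Ifit3*, *Ifit3b*, and *Ifit1bl1* lie below 0 and that of *Ifitm1* (0.46 to 1.08) above it.

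Genes around the families were examined as the 5 nearest tested genes on each side in RefSeq gene order. The *Ifit* cluster lies on chromosome 19 and *Ifitm1*, *Ifitm2*, *Ifitm3*, *Ifitm5*, and *Ifitm6* lie together on chromosome 7, with *Ifitm10* elsewhere on that chromosome. None of the 10 neighbours of the *Ifit* cluster was called (median log2 fold change 0.048), none of the 10 around the *Ifitm* cluster (0.12), and none of the 10 around *Ifitm10* (0.028), nor by edgeR or DESeq2. At an unadjusted *P* under 0.05 in limma there were 1, 2, and 0, respectively, where 2863 of all 17404 tested genes had one. With 0.954% of tested genes called lower and 0.96% called higher, counts of 0 among 10 neighbours are near the background. At an adjusted *P* under 0.05 alone (limma), *Psmd13* beside the *Ifitm* cluster was lower (−0.40, adjusted *P* = 0.0392), with 6477, 6766, and 5833 normalized counts in WT HSCs and 4402, 5294, and 4785 in *Irf1-/-* HSCs. It encodes a proteasome subunit. It did not stay under that threshold when *Irf1-/-* replicate 2 (adjusted *P* = 0.166, limma), *Irf1-/-* replicate 4 (0.147), WT replicate 2 (0.141), or WT replicate 3 (0.153) was left out, or without limma's variance trend (0.298).

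The other genes of the pathway were taken from lists by role. Of 9 tested receptor and kinase genes, 0 were called by limma, edgeR, or DESeq2 (median log2 fold change 0.17). An unadjusted *P* under 0.05 in limma was found for 4 of them, all higher (0.25 to 0.35), and for 2863 of all 17404 genes. In 5 of the 9, every *Irf1-/-* library was above every WT library, where 10.6% of all tested genes showed this. The most abundant was *Jak1* (0.17, adjusted *P* = 0.400, limma). Of 5 feedback inhibitors, only *Socs3*, a brake on cytokine receptors, was called (1.19, adjusted *P* = 7.37e-04, limma), and the most abundant gene not called was *Pias1* (−0.052). Over all tested genes, 0.954% were called lower and 0.96% higher. The call of *Socs3* was lost without limma's variance trend (adjusted *P* = 0.120).

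Of 9 tested RNA and DNA sensors and their partners, 0 were called by limma, edgeR, or DESeq2, and 3 had an unadjusted *P* under 0.05 in limma (median log2 fold change 0.047), and *Ddx58*, which encodes RIG-I, was the most abundant (−0.073). None of the 5 genes of cap methylation and of the translation factors that IFIT proteins bind was called by these tools (1 at the unadjusted threshold, median −0.099), with *Eif3c* the most abundant (−0.099). None of the 4 regulators and partners of IFITM proteins was called either (0 at the unadjusted threshold, median 0.042), with *Nedd4*, a ubiquitin ligase, the most abundant (0.070). Of 6 tested relatives of IFITM with the same membrane domain, 0 were called by any of them (0 at the unadjusted threshold, median 0.36), with *Prrt2* the most abundant (0.44). Values of these relatives ran from −0.92 to 1.45, and that of *Prrt2* was between 0.20 and 0.82 with 1 library left out. In lists this short, counts of 0 are near the share of calls over all tested genes (0.954% lower and 0.96% higher).

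Of 30 tested other antiviral interferon-stimulated genes, 7 were called lower and 0 higher, with a median of −0.30. Over all tested genes, 0.954% were called lower and 0.96% higher, and the median was −0.0028. *Zbp1*, a sensor of Z-form nucleic acid, had 1263, 1250, and 1084 normalized counts in WT HSCs and 51.2, 25.1, and 51.9 in *Irf1-/-* HSCs (log2 fold change −4.85, adjusted *P* = 1.61e-07, limma). The guanylate-binding protein genes *Gbp3* (−1.33, adjusted *P* = 0.00222, limma) and *Gbp2* (−1.25) and the RNA-activated synthetase gene *Oas3* (−1.31) followed. *Mx1* (−1.24) and *Ifi27* (−0.83) were called as well, but *Mx1* lost its call without any 1 library except *Irf1-/-* replicate 3 (adjusted *P* = 0.130 and 0.121 without *Irf1-/-* replicates 2 and 4, and 0.0635, 0.109, and 0.0737 without WT replicates 2, 3, and 4, limma). *Ifi27* lost it without *Irf1-/-* replicate 2, *Irf1-/-* replicate 4, or WT replicate 2 (adjusted *P* = 0.0857, 0.0538, and 0.0591, limma). With DESeq2 and a prior, *Gbp3* was at −0.73 and *Mx1* at −0.74, and without the filter on the mean *Mx1* was not called (adjusted *P* = 0.0562, limma). The most abundant gene not called was *Lgals3bp* (−0.13). Without limma's variance trend, only *Zbp1* and *Gbp2* of all the pathway genes called lower kept their call. In limma's log2 fold change *Ifit3* and *Ifit3b* fell more than *Oas3* and less than *Zbp1*, differences that were not tested.

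Markers of the sorted cells and of other cell types were read in the same libraries. All 8 HSC markers were measured, with *Kit* the most abundant (mean 82582 in WT and 82175 in *Irf1-/-* HSCs), and *Fgd5* was called higher (0.83, lost without limma's variance trend at an adjusted *P* of 0.0511). By the adjusted *P* alone (limma), *Procr* was higher (0.52, adjusted *P* = 0.0112, and called without WT replicate 2) and *Ly6a*, which encodes the sort marker Sca-1, lower (−0.43, adjusted *P* = 0.0245, or 0.0176 to 0.115 without 1 library). Their summed normalized count was 193972, 199137, and 181373 in WT HSCs and 192283, 215869, and 195394 in *Irf1-/-* HSCs. Neutrophil markers, 6 of 6 measured with *Ngp* the most abundant, summed to 175, 131, and 7576 in WT HSCs (replicates 2, 3, and 4) and to 222, 308.5, and 575 in *Irf1-/-* HSCs. WT replicate 4 thus stood apart for neutrophil transcripts. Among the other libraries the neutrophil sum was higher in every *Irf1-/-* library than in WT. With WT replicate 4 left out, *Ngp* was called higher (1.67, adjusted *P* = 0.0449, limma). That fit called 304 of all genes higher, where the fit of all libraries called 167. It called no other neutrophil marker, and *S100a8*, *S100a9*, *Ltf*, and *Elane* still overlapped between genotypes. Without WT replicate 4 the log2 fold changes were −0.68 for *Ifit2*, −1.80 for *Ifit3*, −2.20 for *Ifit3b*, and 0.83 for *Ifitm1*, and all 4 were still called.

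Of 6 erythroid markers, *Hbb-bs*, *Hbb-bt*, *Hba-a1*, and *Hba-a2* were at 0 in all libraries, and the sum was 1436, 1319, and 1201 in WT HSCs and 925, 622, and 957 in *Irf1-/-* HSCs. The most abundant was *Klf1*, called lower (−0.72) but not when *Irf1-/-* replicate 2 (adjusted *P* = 0.0583, limma), *Irf1-/-* replicate 3 (0.0700), WT replicate 2 (0.117), or WT replicate 3 (0.109) was left out, nor by DESeq2 with a prior (−0.57). Megakaryocyte markers, 5 of 5 measured with *Itga2b* the most abundant, summed to 46828, 60084, and 44769 in WT HSCs and to 40098, 24837, and 35732 in *Irf1-/-* HSCs, with *Pf4* (−1.11, or −0.68 with DESeq2 and a prior) and *Gp1ba* (−0.69) called lower. *Gp1ba* was not called when *Irf1-/-* replicate 2 (adjusted *P* = 0.0643, limma), *Irf1-/-* replicate 3 (0.0585), or WT replicate 3 (0.0770) was left out, and all 3 genes lost it without the variance trend. Both sums were lower in every *Irf1-/-* library, as were *Ifit2*, *Ifit3*, and *Ifit3b*, and their part in the result was not tested.

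The other marker sums overlapped between genotypes, and none of those genes that passed the filter was called in the fit of all libraries. B cell markers (6 of 6 measured, 5 tested, most abundant *Cd79b*) summed to 2772, 3048, and 2667 in WT HSCs and to 3103, 2873, and 3041 in *Irf1-/-* HSCs. T cell markers (6 of 6, 3 tested, *Cd4*) summed to 161, 301, and 303 in WT HSCs and to 353, 242, and 395.5 in *Irf1-/-* HSCs. NK cell markers (5 of 5, 3 tested, *Nkg7*) summed to 3723, 3293, and 3532 in WT HSCs and to 2834, 2673, and 3483 in *Irf1-/-* HSCs, with *Gzma* at 0 in all 6. *Nkg7* itself was below WT in every *Irf1-/-* library (3209, 2895, and 2992 in WT HSCs and 2389, 2174, and 2622 in *Irf1-/-* HSCs, log2 fold change −0.34, adjusted *P* = 0.0894, limma). That pattern was shown by 9.27% of all tested genes. The other tested NK cell markers had log2 fold changes of 0.28 (*Klrb1c*) and 0.0089 (*Ncr1*), both uncalled. The sum overlapped only in *Irf1-/-* replicate 4, the library with the most *Klrb1c* (837). Monocyte and macrophage markers (6 of 6, all tested, *Lyz2*) summed to 24822, 32730, and 28634 in WT HSCs and to 28640, 34025, and 29996 in *Irf1-/-* HSCs. Plasmacytoid dendritic cells, strong producers of type I interferon, were low by their markers (5 of 5, 3 tested, *Pacsin1*), with 60.9, 87.9, and 248.5 in WT HSCs and 112, 97.7, and 119 in *Irf1-/-* HSCs. Endothelial and stromal markers (6 of 6, all tested, *Kdr*) summed to 744, 878, and 1316 in WT HSCs and to 1239, 1186, and 1468 in *Irf1-/-* HSCs. That sum overlapped only in WT replicate 4, and without this library *Kdr* was called higher (0.83, adjusted *P* = 0.0155, limma). That fit called 304 of all genes higher, where the fit of all libraries called 167. *Flt4* went the other way (−0.85, adjusted *P* = 0.271, limma). It was below WT in every *Irf1-/-* library, as were 9.27% of all tested genes. *Lepr* was also negative (−0.62), and *Cdh5* (0.52), *Cxcl12* (0.62), and *Col1a1* (0.49) were positive, all uncalled.

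Promoters of the members were searched on both strands for GAAANNGAA, the core of the element that IRF proteins bind, and for TTCNNNGAA, the gamma-activated sequence of interferon signaling. The sequences are those of RefSeq on GRCm38.p6, from 250 bases before to 50 bases after a transcript start, and all 8 members had at least 1. GAAANNGAA was found in 8.56% and TTCNNNGAA in 8.30% of all 32851 promoters of that table. *Ifit1* had 3 matches to GAAANNGAA, beginning 109, 103, and 84 bases before the start. *Ifit3* also had 3, at 155, 121, and 102 bases, and *Ifit3b* had 3, at 187, 153, and 134 bases. Neither promoter of *Ifit2* held GAAANNGAA, and its upstream promoter held TTCNNNGAA at 241 bases before the start.

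Among IFITM genes, *Ifitm2* had 1 match to GAAANNGAA, 46 bases before the start. *Ifitm3* had 2, beginning at bases 3 and 20 after the start, and a match to TTCNNNGAA at base 14 that overlaps the latter of these. The promoters of *Ifitm1* and *Ifitm10* held neither motif in this window. Matches to GAAANNGAA were thus found in the called members *Ifit3* and *Ifit3b* and the uncalled *Ifit1*, *Ifitm2*, and *Ifitm3*, and not in the called *Ifit2* and *Ifitm1* or the uncalled *Ifitm10*. The aligned parts of the *Ifit3* and *Ifit3b* promoters were identical at 258 of 260 bases. *Ifit1bl2*, which runs the opposite way from *Ifit1*, shares the stretch with the 3 matches, and its own promoter is at chr19:34640694-34640993 (minus strand). A match is a description of letters only.

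The promoters of the called members, and of the most abundant uncalled member of each family per count (*Ifit1* and *Ifitm3*), show these matches in capitals, with all other bases in lower case. They are at chr19:34640639-34640938 for *Ifit1*, chr19:34550444-34550743 for the upstream promoter of *Ifit2*, chr19:34583279-34583578 for *Ifit3*, and chr19:34607707-34608006 for *Ifit3b*, all on the plus strand. *Ifitm1* is at chr7:140967826-140968125 on the plus strand and *Ifitm3* at chr7:141010695-141010994 on the minus strand. Each is written in the direction of transcription.
Ifit1: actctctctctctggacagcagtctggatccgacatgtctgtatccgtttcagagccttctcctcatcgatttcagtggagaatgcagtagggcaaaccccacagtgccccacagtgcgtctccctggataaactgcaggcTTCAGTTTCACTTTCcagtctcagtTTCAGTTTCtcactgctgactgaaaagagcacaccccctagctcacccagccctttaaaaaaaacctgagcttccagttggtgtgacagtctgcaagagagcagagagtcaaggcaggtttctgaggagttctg
Ifit2: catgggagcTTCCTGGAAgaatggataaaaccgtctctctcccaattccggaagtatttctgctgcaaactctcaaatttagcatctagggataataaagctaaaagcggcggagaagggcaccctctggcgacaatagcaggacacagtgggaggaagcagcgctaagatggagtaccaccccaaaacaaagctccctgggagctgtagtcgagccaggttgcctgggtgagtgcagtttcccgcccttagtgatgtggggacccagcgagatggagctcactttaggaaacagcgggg
Ifit3: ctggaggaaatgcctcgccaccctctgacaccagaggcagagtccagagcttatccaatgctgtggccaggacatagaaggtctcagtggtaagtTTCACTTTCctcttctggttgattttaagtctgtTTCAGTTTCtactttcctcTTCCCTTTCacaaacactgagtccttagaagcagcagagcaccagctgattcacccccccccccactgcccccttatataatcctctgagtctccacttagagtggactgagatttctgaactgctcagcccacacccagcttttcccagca
Ifit3b: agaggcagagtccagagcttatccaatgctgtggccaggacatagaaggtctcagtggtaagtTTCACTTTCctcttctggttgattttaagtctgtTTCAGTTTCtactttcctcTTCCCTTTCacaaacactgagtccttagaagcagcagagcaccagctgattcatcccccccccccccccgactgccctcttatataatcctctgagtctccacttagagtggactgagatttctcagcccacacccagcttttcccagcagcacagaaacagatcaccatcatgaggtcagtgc
Ifitm1: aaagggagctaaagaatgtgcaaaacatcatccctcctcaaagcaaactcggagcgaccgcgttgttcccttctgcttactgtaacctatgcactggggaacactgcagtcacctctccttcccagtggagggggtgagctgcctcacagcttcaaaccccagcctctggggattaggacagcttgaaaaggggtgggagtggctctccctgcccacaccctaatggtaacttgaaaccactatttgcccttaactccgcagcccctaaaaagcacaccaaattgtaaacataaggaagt
Ifitm3: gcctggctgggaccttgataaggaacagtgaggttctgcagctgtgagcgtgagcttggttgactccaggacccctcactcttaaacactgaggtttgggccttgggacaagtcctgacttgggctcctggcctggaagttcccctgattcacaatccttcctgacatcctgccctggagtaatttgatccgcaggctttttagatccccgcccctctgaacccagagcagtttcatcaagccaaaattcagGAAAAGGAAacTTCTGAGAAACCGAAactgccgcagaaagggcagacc

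**Figure D3:**
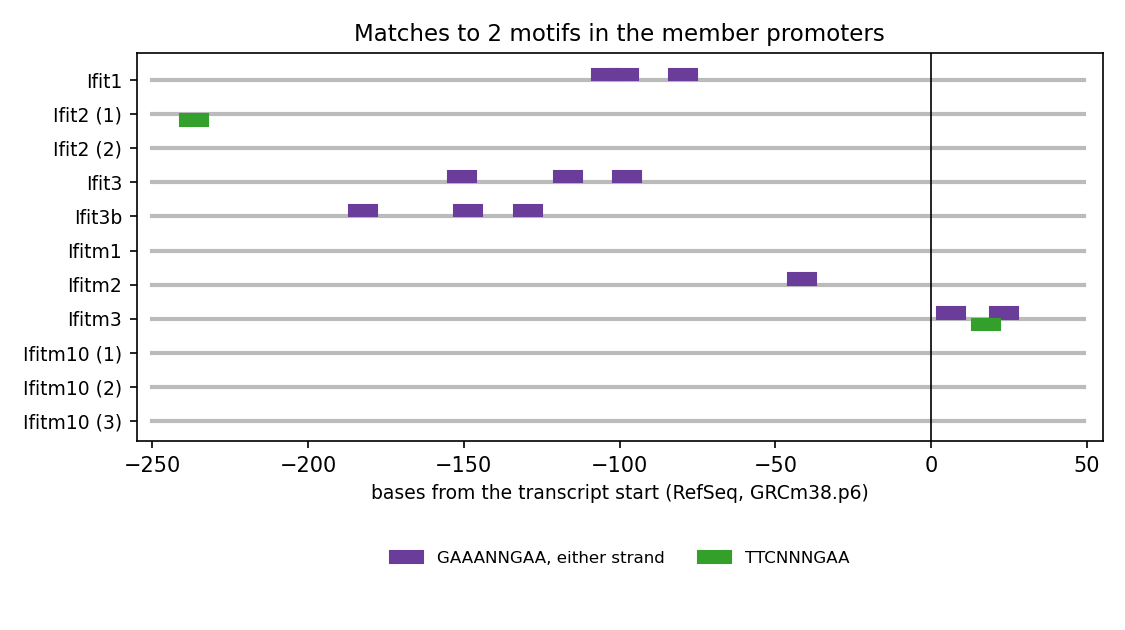
Matches to GAAANNGAA (purple) and TTCNNNGAA (green) in the RefSeq promoters of the 8 members, with the horizontal axis in bases from the transcript start and numbers in brackets for genes with several promoters. *Ifit1*, *Ifit3*, and *Ifit3b* have 3 purple matches each before the start, and the 2 of *Ifitm3* lie after it.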

How the data were processed

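Bulk RNA-seq libraries of HSCs from 3 WT and 3 *Irf1-/-* mice were grouped by their labels. The SMART-Seq v4 kit gave cDNA and Nextera XT the libraries. The authors used Trim Galore!, then HISAT2 (build mm39 in the submitters' processing notes), then Htseq-count. The values the authors deposited are a signal, namely counts divided by a DESeq2 size factor per library. Versions, annotation, and strand setting are not given in the sources used here. All values (100%, tolerance 0.01) were whole multiples of the value of 1 read, so reads could be recovered. Reads are not independent molecules, since the protocol has no molecular identifiers. Libraries of a genotype differed by more than counting noise.

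The test was that of limma 3.58.1 (R 4.3.3, eBayes with a trend) on log2(normalized count + 1), with Benjamini-Hochberg adjustment over all 17404 genes. edgeR 4.0.16 and DESeq2 1.42.0 on recovered reads were alternatives. The tests were tried on simulated data. The members and lists were chosen with earlier results of these data known. Named genes are the members, all other *Ifit* and *Ifitm* genes, *Irf1*, and, per list, the called genes (up to 6, by size) and the most abundant gene not called. Other named genes are the nearest 5 on each side of a locus, the markers, and the 3 genes most like *Ifit2* and *Ifitm3*. Transcript lengths came from GENCODE vM1, which gave a length for 94.2% of tested genes, gene order and promoters from RefSeq (GRCm38.p6). Protein sequences were not analysed here. Some genes that this rule covers are not reported here. Figures were drawn with matplotlib 3.10.9.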

Additional observations from a re-analysis of the deposited data

How the results depend on the processing

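Over 18 alternatives, *Ifit2* and *Ifit3* kept their call in 17 and *Ifit3b* in 16 of 17, and every alternative gave the same sign. The fit with *Ifit3* and *Ifit3b* summed is among the 18. It repeats the main values of the other members, so it could not change their calls, and its value for *Ifit3* is that of the sum. *Ifitm1* kept its call in 16 of 18. *Ifit1* was negative in all 18 and not called in any, and *Ifitm10* was positive in all 17 that gave it. It was uncalled in each of these with an adjusted *P*, which the 2 fits with DESeq2 did not give for it. Of the uncalled signs, *Ifitm2* kept its own in 15 and *Ifitm3* in 14. Without limma's variance trend, 0 IFIT genes were called lower, 0 IFITM genes higher, 2 pathway genes lower and 0 higher, and 33 and 7 of all genes. The cause was not tested.

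With single libraries left out, IFIT genes called lower stayed at 3, IFITM genes called higher were 0 (without WT replicate 3) to 1, pathway genes called lower 7 to 11 and higher 1 to 2, all genes called lower 105 to 265, and all genes called higher 83 to 304. DESeq2 called 209 lower and 295 higher without a prior, and 134 lower and 169 higher with a prior, when 1 pathway gene was called higher, with family medians of −0.92 (IFIT) and 0.16 (IFITM). edgeR on the recovered reads called 161 lower and 162 higher. Without the fold threshold 260 were lower and 301 higher. The IFITM median was 0.023 at a mean of at least 50, which leaves out *Ifitm10* by construction, and the IFIT median was −0.69 with *Ifit3* and *Ifit3b* summed, which makes 3 values of 4. Median centring called 196 lower and 149 higher.

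The replicate numbers did not pair the libraries, since deviations from the genotype mean correlated at −0.094, 0.246, and 0.147 for the same number. Not every library correlated best with its own number. With the replicate block, 196 genes were called lower and 219 higher, and the same numbers of IFIT (3) and IFITM (1) genes were called.

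Low genes set a limit on depth, with 27 to 72 reads per library for *Ifitm10* and 0 to 34 for *Ifitm6*. Groups of 3 mice limit the precision of every fold change.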
